A study of Homo sapiens with 6 samples.

Results

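The 46 genes described here encode the machinery of mitosis, from the kinases that start it to the proteins that finish cytokinesis, and they were chosen by name from the SU-CCS-1 gene counts. All 46 were found among the 18118 genes with counts, and all 46 were among the 14571 genes that passed a filter on low counts and were tested. The SU-CCS-1 line was established from a clear cell sarcoma, and its cells express EA1, the EWSR1::ATF1 fusion of that tumor. Polyadenylated RNA was sequenced from 6 libraries of this one line. The cells of all libraries were transfected for 48 h with 5 pmol of siRNA per well: 2 libraries with the negative control (siNeg1), 2 with the siRNA labelled siEA1-1 and 2 with the siRNA labelled siEA1-2, called EA1 siRNA 1 and EA1 siRNA 2. The labels distinguish 2 EA1 siRNAs, whereas the study's methods describe 1, and the targeted sequences are not given in the sources used here. The comparison of knockdown with control asks which transcripts change under an EA1 siRNA in cells that carry the fusion.

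Mitotic genes are transcribed late in the cell cycle. MuvB, a protein complex that binds the cell cycle homology region (CHR) in their promoters, represses them in resting cells as part of DREAM and activates them in G2 together with B-MYB and FOXM1. Genes of DNA replication peak earlier, at the G1/S transition, and are typically driven through E2F sites. A growing tumor line such as SU-CCS-1 holds cells in every phase, so both programs are measured together in bulk RNA.

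The library totals ranged from 5942808 to 7599305 counts, at which a count of 3, taken as the floor of detection, equals 0.395 to 0.505 CPM (counts scaled to the library size); this floor covers counting error only. ATF1, which collects reads of both the native gene and the fusion, was counted 549 and 680 times in control, and its counts were 149 and 123 under EA1 siRNA 1 and 122 and 159 under EA1 siRNA 2. Loss of native ATF1 and loss of the fusion cannot be told apart in these counts. EWSR1, the other partner of the fusion, was counted 1321 and 1815 times in control. Its counts were 1374 and 1234 under EA1 siRNA 1 and 1239 and 1409 under EA1 siRNA 2, an averaged log2 change of -0.08. The melanocyte lineage genes MITF and SOX10 that mark clear cell sarcoma were expressed in every library. Of the 7 markers of that list, 6 were higher with each siRNA at an adjusted p under 0.05 in edgeR's quasi-likelihood test. Of all genes tested, 19.9% were higher by that test with EA1 siRNA 1 and 18.5% with EA1 siRNA 2. None of the 15 leukocyte, epithelial, endothelial and fibroblast markers passed the filter, and those present in the counts had at most 12 counts in any library. The replicate pairs correlated across genes at 0.977 to 0.983, and in each pair the counts differed by more than sampling noise. The labels do not say that replicates came from separate cultures, so the p-values below measure only the spread between these libraries, which may be technical.

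Short letter patterns in the promoters of the mitotic and G1/S genes were counted as a description, with no test. RefSeq promoter windows, from 250 bases before to 50 bases after a start site on GRCh38.p14, were matched by symbol for 39 of the 46 mitotic genes and 32 of 43 G1/S-expressed genes; no entry was matched for AURKA, BIRC5, BUB3, CENPM, FOXM1, TPX2 and TTK. The CHR letters (TTTGAA or TTTAAA, either strand) lay in 31 of the 39 mitotic windows (79.5%), in 5 of the 32 G1/S windows (15.6%) and in 24.3% of all 27305 windows. Within 50 bases of the start site, a limit set after the data were seen, the letters lay in 26 mitotic windows (66.7%), in 1 G1/S window (3.12%), that of RRM2, and in 7.75% of all windows. The CCAAT box (CCAAT, either strand) did not separate the lists in this way, with 28 of 39 mitotic windows (71.8%), 23 of 32 G1/S windows (71.9%) and 35.7% of all windows. The cAMP response element (CRE, TGACGTCA), the full site that ATF1 and its relatives are known to bind, lay in 5 mitotic windows (12.8%), those of CCNA2, CENPE, KIF15, NDC80 and PRC1, in 2 G1/S windows (6.25%) and in 1.98% of all windows. Its half-site TGACG, which every full site also holds, was in 17 mitotic (43.6%), 13 G1/S (40.6%) and 25% of all windows. E2F letters (TTTCCCGC, TTTCGCGC, TTTGCCGC or TTTGGCGC, either strand), a search added after the data were seen, were in 3 mitotic windows (7.69%), 16 G1/S windows (50%) and 3.33% of all windows. These matches describe letters in a window and are not binding sites.

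The stretches below lie just upstream of the start site, on the strand of the gene, and were chosen to show these patterns. CCNB1, CDC20, KIF11 and KIF20A pair a CHR with CCAAT boxes, NDC80 and CCNA2 hold a CRE, PTTG1 holds a CHR beside overlapping CCAAT boxes but is one of the 2 mitotic genes that were not called in the averaged comparison, and PCNA and GINS2 are G1/S genes with an E2F site. Capitals mark the CHR, CCAAT, CRE and E2F letters, and no base of an annotated exon of the gene is included.
CCNB1, chr5:69167050-69167134, plus strand: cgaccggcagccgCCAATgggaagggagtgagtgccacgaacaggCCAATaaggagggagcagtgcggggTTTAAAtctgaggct
CDC20, chr1:43358881-43358980, plus strand: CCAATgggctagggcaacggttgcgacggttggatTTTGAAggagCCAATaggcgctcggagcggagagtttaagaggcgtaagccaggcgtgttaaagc
KIF11, chr10:92593030-92593129, plus strand: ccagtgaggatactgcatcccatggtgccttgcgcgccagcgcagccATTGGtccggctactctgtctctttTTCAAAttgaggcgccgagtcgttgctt
KIF20A, chr5:138179012-138179111, plus strand: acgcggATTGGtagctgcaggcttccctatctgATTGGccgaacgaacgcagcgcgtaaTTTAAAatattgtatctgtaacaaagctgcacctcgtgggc
NDC80, chr18:2571457-2571556, plus strand: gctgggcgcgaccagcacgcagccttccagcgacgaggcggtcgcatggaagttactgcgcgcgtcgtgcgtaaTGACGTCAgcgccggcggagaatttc
CCNA2, chr4:121823884-121823983, minus strand: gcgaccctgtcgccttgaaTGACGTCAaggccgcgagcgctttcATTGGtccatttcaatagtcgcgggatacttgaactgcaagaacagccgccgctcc
PTTG1, chr5:160421755-160421854, plus strand: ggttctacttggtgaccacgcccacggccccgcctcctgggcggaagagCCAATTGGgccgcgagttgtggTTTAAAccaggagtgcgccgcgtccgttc
PCNA, chr20:5126627-5126722, minus strand: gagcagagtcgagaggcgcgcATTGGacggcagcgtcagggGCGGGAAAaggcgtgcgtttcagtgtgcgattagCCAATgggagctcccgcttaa
GINS2, chr16:85688955-85689054, minus strand: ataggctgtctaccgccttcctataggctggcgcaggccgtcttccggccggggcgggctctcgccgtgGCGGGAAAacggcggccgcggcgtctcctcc

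The plot of match positions shows where those letters lie. In CCNB1 the CHR begins 30 bases before the start site, in PTTG1 29, in KIF11 28 and in KIF20A 41. In CDC20 it begins 65 bases before, outside the 50-base limit. The E2F letters begin 31 bases before the start site in GINS2 and 59 in PCNA.

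**Figure D1:**
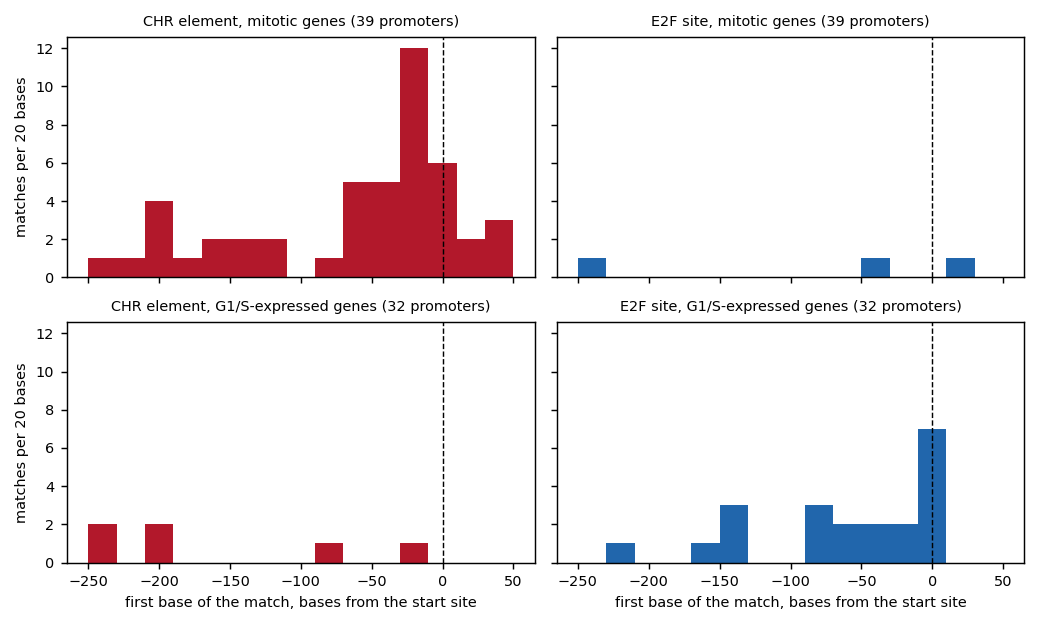
Positions of CHR letters (left, red) and E2F letters (right, blue) in the RefSeq promoter windows of 39 mitotic genes (top) and 32 G1/S-expressed genes (bottom). The horizontal axis is the first base of a match in bases from the start site (dashed line) and the vertical axis counts matches per 20 bases; CHR matches of mitotic genes crowd around the start site, and E2F matches are found mainly in the G1/S genes.

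Transcripts of nearly the whole mitotic set fell after EA1 knockdown. With both siRNAs averaged, 44 of 46 genes were called lower by edgeR's quasi-likelihood test (adjusted p under 0.05), against 22.1% of all genes tested, and their median log2 change, knockdown minus control, was -0.85, which is 0.556 of the control level, while the median over all genes tested was 0.01. No mitotic gene was called higher, where 21.5% of all genes were; none had a positive averaged change at an unadjusted p under 0.05, and DESeq2 also called 0 higher. In 44 of 46 genes all 4 knockdown libraries lay below both control libraries, an order found in 27.3% of all genes tested, and in no mitotic gene did all 4 lie above, as they did in 28.1% of all genes. The 2 exceptions were INCENP and PTTG1. The averaged change ranged from -1.63 for CENPK to 0.07 for INCENP. Of the 46 genes, 14 fell by more than 1 on the log2 scale, as did 1408 of the 14571 genes tested. In bulk RNA, fewer cells in mitosis and less of each transcript per cell cannot be told apart.

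With EA1 siRNA 1, 42 of 46 genes were called lower, against 20.3% of all genes tested, at a median log2 change of -1.10. With EA1 siRNA 2, 35 were called lower, against 18.2% of all genes, at a median of -0.57. The same 35 genes were called with both siRNAs, 7 were called with EA1 siRNA 1 alone, and 4, CDC25B, BUB3, PTTG1 and INCENP, with neither siRNA. By edgeR, 0 mitotic genes were called higher with either siRNA, against 19.9% of all genes with EA1 siRNA 1 and 18.5% with EA1 siRNA 2. At an unadjusted p under 0.05, 0 were higher with EA1 siRNA 1 and 1, INCENP, with EA1 siRNA 2, and DESeq2 called 0 with each. The count for EA1 siRNA 2 was 24 without control replicate 1, 26 without control replicate 2 and 26 without replicate 1 of that siRNA.

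**Figure D2:**
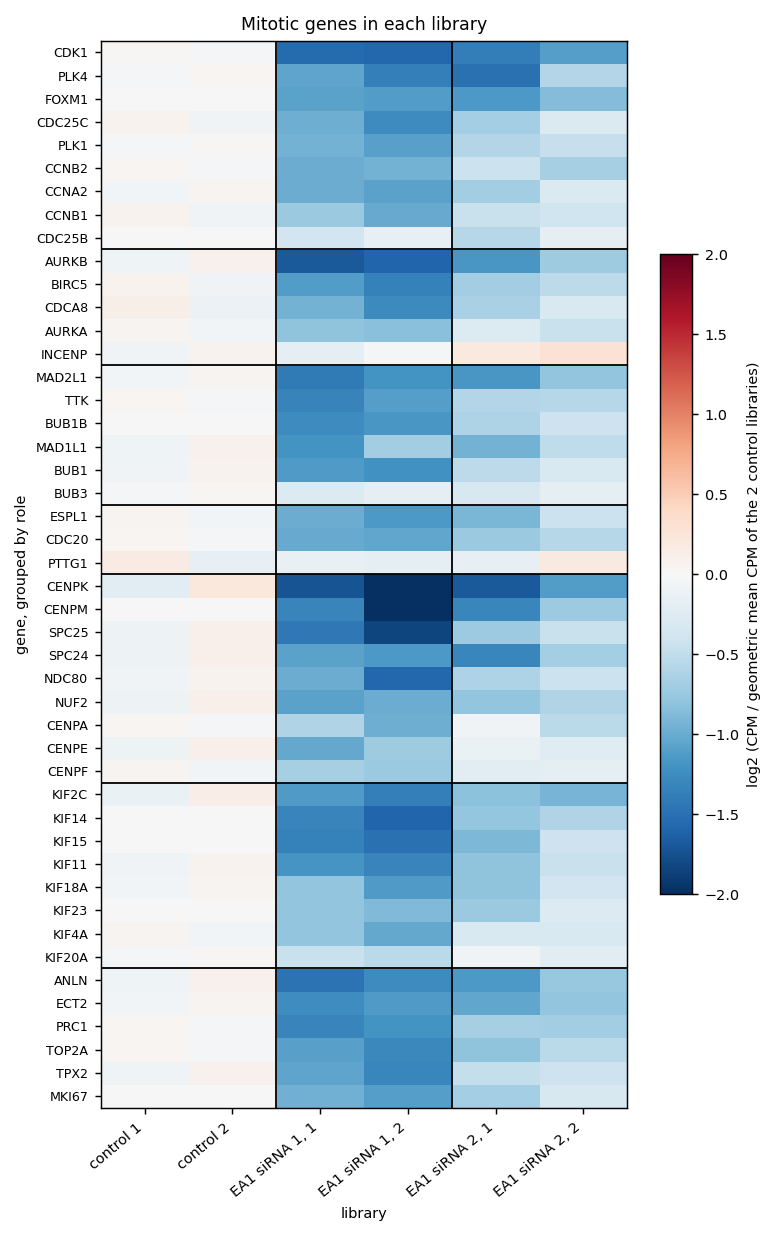
Level of the 46 mitotic genes in each of the 6 libraries, as log2 of CPM over the geometric mean of the 2 control libraries, grouped by role (black lines) and ordered within a role by the averaged change. Blue cells fill the 4 knockdown columns of 44 genes, most deeply for EA1 siRNA 1, and INCENP and PTTG1 stay near the control color.

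The mitotic genes were well expressed in the control cells. Per length, as RPKM, which divides CPM by the exon length, their control level ran from 3.06 in MAD1L1 to 80.0 in CDC25B with a median of 16.5, against 5.06 for all genes tested, and 44 of 46 lay above that value. Single counts of the mitotic genes ran from 18, for CENPM in replicate 2 of EA1 siRNA 1, to 4611, for MKI67 in control replicate 2. Values per library below are CPM scaled by the TMM method, and log2 changes are averaged over both siRNAs unless a siRNA is named. The same holds for the calls within each role, beside which 22.1% of all genes tested were called lower.

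All 9 genes grouped as mitotic kinases, cyclins and phosphatases, with the transcription factor FOXM1 among them, were called lower. CDK1 (ENSG00000170312, chr10:60778331-60794852 on hg38, plus strand), the catalytic kinase of mitotic entry, fell most, with control levels of 117 and 114 CPM, against 39.8 and 39.0 under siRNA 1 and 44.3 and 53.8 under siRNA 2 (log2 change -1.39 ± 0.10, SE, adjusted p = 8.39e-07). Its 4 knockdown libraries were well apart from both controls. Its partner cyclin B1, CCNB1 (ENSG00000134057, chr5:69167135-69178245 on hg38, plus strand), had 105 and 95.1 CPM in the controls and 59.9, 49.6, 73.5 and 76.1 in the knockdown libraries, EA1 siRNA 1 first (log2 change -0.64 ± 0.10, SE, adjusted p = 0.000315). Cyclin B2, encoded by CCNB2, had 44.9 and 42.4 CPM in control, 21.9 and 22.7 after EA1 siRNA 1 and 32.4 and 27.5 after EA1 siRNA 2 (log2 change -0.76 ± 0.12, SE, adjusted p = 0.000428). CCNA2, which encodes cyclin A2 and serves both S phase and mitotic entry, had control levels of 106 and 113 CPM, against 54.9 and 52.0 under siRNA 1 and 67.6 and 89.8 under siRNA 2 (log2 change -0.75 ± 0.11, SE, adjusted p = 0.000222). All 3 cyclins had a smaller log2 change than CDK1, a difference that was not tested, and none overlapped between control and knockdown libraries. PLK1, a kinase of centrosome maturation and spindle assembly, had 145 and 149.9 CPM in the controls and 76.8, 69.7, 98.4 and 107 in the knockdown libraries, EA1 siRNA 1 first (log2 change -0.77 ± 0.09, SE, adjusted p = 2.85e-05). For FOXM1, the forkhead factor that activates G2/M genes, the libraries had 248 and 247 CPM in control, 118 and 114 after EA1 siRNA 1 and 111 and 135 after EA1 siRNA 2 (log2 change -1.05 ± 0.09, SE, adjusted p = 4.32e-06). FOXM1 fell by nearly the same amount with each siRNA, -1.09 with the first and -1.01 with the second. ITFG2 and RHNO1, both called, overlap FOXM1 on the other strand, and EXOSC9, also called, overlaps CCNA2. The libraries were made with a stranded kit, but how strand was used in the counting is not given in the sources used here. PLK4, the kinase of centriole duplication, fell by 1.07 and CDC25C, an activating phosphatase of CDK1, by 0.78. Leaving out control replicate 1 ended the call of CDC25C (adjusted p = 0.0936). CDC25B, another CDK1 phosphatase and the most abundant mitotic gene per length, was named after its values were seen and is at the weak end, with control levels of 309 and 316 CPM, against 238 and 279 under siRNA 1 and 209.7 and 275 under siRNA 2 (log2 change -0.32 ± 0.11, SE, adjusted p = 0.0397). CDC25B was not called with either siRNA alone, and its averaged call was lost without control replicate 1 (adjusted p = 0.135), control replicate 2 (0.134) or EA1 siRNA 1 replicate 1 (0.131).

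Of the Aurora kinases and the chromosomal passenger complex, which corrects attachments of chromosomes to the spindle and guides cytokinesis, 4 of 5 were called lower and the scaffold was not. AURKB (ENSG00000178999, chr17:8204733-8210600 on hg38, minus strand), the kinase subunit, had 26.5 and 30.0 CPM in the controls and 8.82, 9.39, 12.6 and 17.3 in the knockdown libraries, EA1 siRNA 1 first (log2 change -1.27 ± 0.17, SE, adjusted p = 8.69e-05). BIRC5, also called survivin, had 212 and 194 CPM in control, 92.9 and 79.7 after EA1 siRNA 1 and 125 and 141 after EA1 siRNA 2 (log2 change -0.92 ± 0.10, SE, adjusted p = 1.46e-05). CDCA8, which encodes the subunit borealin, fell by 0.78. AURKA, the Aurora kinase of spindle poles and centrosomes, had control levels of 82.5 and 75.7 CPM, against 45.4 and 44.3 under siRNA 1 and 65.7 and 58.3 under siRNA 2 (log2 change -0.59 ± 0.10, SE, adjusted p = 0.000486). All 4 of its knockdown libraries lay below both controls. INCENP, ENSG00000149503 at chr11:62123998-62153169 on hg38, plus strand, the scaffold that holds this complex together and a gene singled out after its values were seen, had 135 and 148 CPM in the controls and 125, 138, 162 and 172 in the knockdown libraries, EA1 siRNA 1 first (log2 change 0.07 ± 0.09, SE, adjusted p = 0.562). Both EA1 siRNA 2 libraries were the highest of the 6 for INCENP, with a log2 change of 0.24 ± 0.10 (SE, adjusted p = 0.0914), and 1 of the EA1 siRNA 1 libraries lay between the controls.

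All 6 genes of the spindle checkpoint, which holds anaphase until every kinetochore is attached, were called lower. MAD2L1, whose product inhibits CDC20, had 78.1 and 84.9 CPM in control, 30.4 and 35.6 after EA1 siRNA 1 and 36.3 and 46.9 after EA1 siRNA 2 (log2 change -1.14 ± 0.12, SE, adjusted p = 1.68e-05). TTK, the kinase that starts the signal, had control levels of 62.0 and 58.8 CPM, against 23.9 and 28.2 under siRNA 1 and 40.4 and 40.6 under siRNA 2 (log2 change -0.90 ± 0.11, SE, adjusted p = 5.14e-05). BUB1B, which encodes BUBR1 of the mitotic checkpoint complex, had 111 and 109 CPM in the controls and 46.2, 48.9, 71.7 and 82.8 in the knockdown libraries, EA1 siRNA 1 first (log2 change -0.86 ± 0.09, SE, adjusted p = 2.03e-05). In these 3 genes the EA1 siRNA 1 libraries were lower than both EA1 siRNA 2 libraries. For BUB1, a kinetochore kinase, the libraries had 118 and 129 CPM in control, 56.0 and 53.5 after EA1 siRNA 1 and 85.6 and 100.4 after EA1 siRNA 2 (log2 change -0.79 ± 0.09, SE, adjusted p = 4.35e-05). MAD1L1, which recruits MAD2 to kinetochores and has the lowest control level per length, fell by 0.82. The weakest change was that of BUB3, a WD40 partner of BUB1 and BUBR1 that was named after its values were seen, with control levels of 112 and 117 CPM, against 94.9 and 100.1 under siRNA 1 and 91.0 and 100.1 under siRNA 2 (log2 change -0.24 ± 0.09, SE, adjusted p = 0.0425). All 4 knockdown libraries of BUB3 were below both controls by a small margin. Its call was lost with DESeq2 (adjusted p = 0.0965), with no filter on low counts (0.0535), and without control replicate 1 (0.121), control replicate 2 (0.174), EA1 siRNA 1 replicate 1 (0.129), EA1 siRNA 1 replicate 2 (0.0567) or EA1 siRNA 2 replicate 1 (0.051).

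At anaphase onset, the activator and the protease fell and the inhibitor was not called. CDC20, which activates the anaphase-promoting complex, had 60.5 and 57.3 CPM in the controls and 29.2, 28.7, 35.1 and 39.9 in the knockdown libraries, EA1 siRNA 1 first (log2 change -0.84 ± 0.11, SE, adjusted p = 7.55e-05). ESPL1, which encodes separase, the protease that opens cohesin, fell by 0.86. PTTG1, ENSG00000164611 at chr5:160421855-160428739 on hg38, plus strand, which encodes securin, the inhibitor of separase, had 125 and 100.3 CPM in control, 101 and 97.8 after EA1 siRNA 1 and 100.2 and 126 after EA1 siRNA 2 (log2 change -0.08 ± 0.12, SE, adjusted p = 0.599). The control libraries of PTTG1 were themselves apart, and EA1 siRNA 2 replicate 2 was above both of them. Its averaged change turned to 0.08 without control replicate 1, and PTTG1, too, was singled out after its values were seen.

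The 9 kinetochore and centromere genes were all called lower and held the deepest fall of the set. With EA1 siRNA 1 all 9 were called, against 20.3% of all genes tested, and with EA1 siRNA 2, 4 of 9, against 18.2%. CENPK (ENSG00000123219, chr5:65517766-65563168 on hg38, minus strand), a subunit of the constitutive centromere network, had control levels of 56.6 and 76.4 CPM, against 19.8 and 16.1 under siRNA 1 and 20.5 and 30.5 under siRNA 2 (log2 change -1.63 ± 0.17, SE, adjusted p = 1.54e-05). CENPM, of the same network, had 15.3 and 15.4 CPM in the controls and 6.12, 2.96, 6.23 and 9.27 in the knockdown libraries, EA1 siRNA 1 first (log2 change -1.35 ± 0.26, SE, adjusted p = 0.00148), on counts of 102 and 120 in control and 43 and 18 with EA1 siRNA 1. SPC25, of the microtubule-binding NDC80 complex, had 19.3 and 22.1 CPM in control, 7.68 and 5.76 after EA1 siRNA 1 and 12.5 and 15.2 after EA1 siRNA 2 (log2 change -1.10 ± 0.18, SE, adjusted p = 0.000517). The standard errors of these 3 genes were wider than that of CDK1. The other subunits of the NDC80 complex fell as well, SPC24 by 1.03, NDC80 by 0.88 and NUF2 by 0.86. CENPE, a kinetochore motor that carries chromosomes to the equator, had control levels of 90.3 and 104 CPM, against 47.5 and 59.1 under siRNA 1 and 88.8 and 81.8 under siRNA 2 (log2 change -0.53 ± 0.11, SE, adjusted p = 0.00207). CENPF, a large protein of the outer kinetochore, had 432 and 401 CPM in the controls and 263, 249, 357 and 365 in the knockdown libraries, EA1 siRNA 1 first (log2 change -0.45 ± 0.08, SE, adjusted p = 0.000975). For both, the fall was called with EA1 siRNA 1 and not with EA1 siRNA 2, whose log2 changes were -0.19 ± 0.13 for CENPE and -0.21 ± 0.10 for CENPF (SE). SPC25 (adjusted p = 0.0511 with EA1 siRNA 2), NDC80 (0.051) and CENPA (0.297) were likewise called with EA1 siRNA 1 alone. CENPA, the centromeric histone H3 variant, fell by 0.53 in the averaged comparison, and its call was lost with DESeq2 (adjusted p = 0.0645) and without control replicate 1 (0.139), control replicate 2 (0.0772) or EA1 siRNA 1 replicate 2 (0.079).

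All 8 kinesins, motors that walk on or take apart microtubules, were called lower. KIF14, a kinesin of cytokinesis, had 88.8 and 89.1 CPM in control, 35.6 and 29.5 after EA1 siRNA 1 and 52.2 and 58.8 after EA1 siRNA 2 (log2 change -1.06 ± 0.10, SE, adjusted p = 9.58e-06). KIF11, also called Eg5, which pushes spindle poles apart, had control levels of 131 and 145 CPM, against 60.9 and 55.2 under siRNA 1 and 78.9 and 101 under siRNA 2 (log2 change -0.93 ± 0.11, SE, adjusted p = 3.31e-05). KIF4A, a chromosome-bound kinesin of the central spindle, had 122 and 114 CPM in the controls and 68.3, 58.0, 95.1 and 95.6 in the knockdown libraries, EA1 siRNA 1 first (log2 change -0.60 ± 0.09, SE, adjusted p = 0.00029). PDZD11, a called gene on the other strand, overlaps KIF4A. KIF23, which encodes the centralspindlin motor MKLP1, had 89.4 and 88.3 CPM in control, 51.2 and 48.4 after EA1 siRNA 1 and 52.9 and 73.3 after EA1 siRNA 2 (log2 change -0.66 ± 0.12, SE, adjusted p = 0.000909). In KIF23, replicate 2 of EA1 siRNA 2 was the nearest to the controls. The microtubule depolymerase gene KIF2C fell by 1.06, KIF15, which helps Eg5, by 1.02, and KIF18A, which limits chromosome oscillation, by 0.76. KIF20A, a motor of the central spindle named after its values were seen, changed least, with control levels of 65.3 and 67.0 CPM, against 48.8 and 45.5 under siRNA 1 and 62.8 and 56.9 under siRNA 2 (log2 change -0.32 ± 0.10, SE, adjusted p = 0.0203). BRD8, called higher on the other strand, overlaps KIF20A, and the call of KIF20A was lost with DESeq2 (adjusted p = 0.0642) and without control replicate 1 (0.0877), control replicate 2 (0.0938) or EA1 siRNA 1 replicate 2 (0.0518).

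The last 6 genes serve spindle assembly, cytokinesis and chromosome structure. Each was called lower with each siRNA, against 20.3% of all genes tested with EA1 siRNA 1 and 18.2% with EA1 siRNA 2. ANLN, which encodes the actin-binding anillin of the contractile ring, had 227 and 257 CPM in the controls and 87.3, 101, 109 and 144 in the knockdown libraries, EA1 siRNA 1 first (log2 change -1.15 ± 0.11, SE, adjusted p = 1.02e-05). TPX2, an activator of Aurora A and a microtubule nucleation factor, had 196 and 219 CPM in control, 100.3 and 83.8 after EA1 siRNA 1 and 148 and 155 after EA1 siRNA 2 (log2 change -0.81 ± 0.10, SE, adjusted p = 3.74e-05). The DNA-untangling enzyme gene TOP2A had control levels of 357 and 339 CPM, against 165 and 143 under siRNA 1 and 198 and 240.1 under siRNA 2 (log2 change -0.92 ± 0.10, SE, adjusted p = 1.95e-05). MKI67, the proliferation marker Ki-67 that coats mitotic chromosomes, had 583 and 593 CPM in the controls and 302, 273, 367 and 469 in the knockdown libraries, EA1 siRNA 1 first (log2 change -0.76 ± 0.11, SE, adjusted p = 0.000129). In TOP2A and MKI67 the EA1 siRNA 2 libraries were wide apart, replicate 2 being the higher. ECT2, which activates RhoA for cytokinesis, fell by 1.05 and PRC1, which bundles the microtubules of the midzone, by 0.97.

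**Figure D3:**
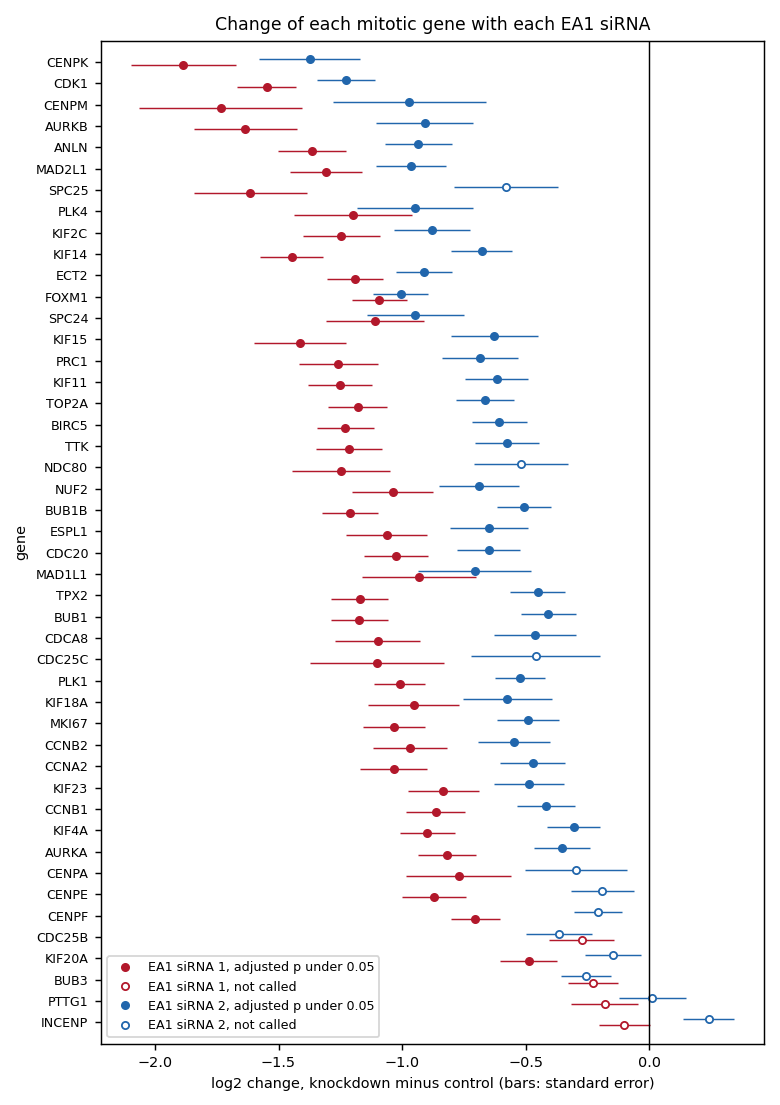
Log2 change, knockdown minus control, of each of the 46 mitotic genes with EA1 siRNA 1 (red) and EA1 siRNA 2 (blue), with bars of 1 standard error from 2 libraries per group. Filled points have an adjusted p under 0.05 (42 red, 35 blue), and the red point lies left of the blue one in 44 genes.

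The fall was deeper with EA1 siRNA 1 than with EA1 siRNA 2 across most of the mitotic genes. The log2 change was more negative with EA1 siRNA 1 in 44 of 46, and both EA1 siRNA 1 libraries lay below both EA1 siRNA 2 libraries in 38 of 46, against 23.8% of all genes. In the direct test of the difference, 12 mitotic genes were called lower with EA1 siRNA 1, against 1.44% of all genes, and 0 higher, against 0.796%; none was higher at an unadjusted p under 0.05, and DESeq2 also called 0 higher. The 12 were SPC25, KIF14, BUB1, TPX2, BUB1B, CENPE, TTK, KIF11, BIRC5, KIF4A, CENPF and PLK1, from 6 of the 7 roles. The largest difference was that of SPC25, -1.03 ± 0.24 (SE, adjusted p = 0.0484), and the smallest adjusted p was that of BUB1, with -0.77 ± 0.12 (SE, adjusted p = 0.00932). FOXM1 and SPC24 were nearly level between the siRNAs, with differences of -0.09 ± 0.11 and -0.16 ± 0.21 (SE), and the 2 genes not more negative with EA1 siRNA 1 were CDC25B and BUB3, at 0.09 ± 0.13 and 0.03 ± 0.10 (SE). The count of 12 rested on single libraries: it was 7 without either control library, 2 without EA1 siRNA 1 replicate 1, 0 without EA1 siRNA 1 replicate 2 and 22 without EA1 siRNA 2 replicate 1. With the replicate number as a block it was 22. ATF1 counts were alike with both siRNAs. Replicate 2 of EA1 siRNA 2 was above replicate 1 in 39 of the 46 genes. The share of all genes with that order was not counted, so it is not read as particular to the mitotic genes.

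The median change of the genes expressed at G1/S was more negative than that of the mitotic genes. All 43 genes of the list of G1/S-expressed genes, which holds replication and nucleotide enzymes, were called lower with EA1 siRNA 1 and with both averaged, and 41 with EA1 siRNA 2, against 20.3%, 22.1% and 18.2% of all genes tested. Their median log2 change was -1.75 under EA1 siRNA 1 and -1.20 under EA1 siRNA 2, so the median of the mitotic genes was less negative by 0.65 and by 0.63. Of the mitotic genes, 1, CENPK, was below the averaged G1/S median of -1.45, and 6 G1/S genes were above the mitotic median. The deepest falls were those of CDC6, a loader of the replicative helicase, with 138 and 149.9 CPM in control, 11.7 and 14.5 after EA1 siRNA 1 and 13.7 and 24.6 after EA1 siRNA 2 (log2 change -3.17 ± 0.16, SE, adjusted p = 9.06e-08), and of DTL, an adaptor of a ubiquitin ligase active in S phase, with control levels of 224 and 239 CPM, against 25.9 and 35.4 under siRNA 1 and 36.0 and 61.1 under siRNA 2 (log2 change -2.58 ± 0.16, SE, adjusted p = 3.68e-07). CCNE2 and DSCC1 followed, at averaged log2 changes of -2.17 and -2.10. The median log2 difference between the siRNAs, EA1 siRNA 1 minus EA1 siRNA 2, was -0.48 in the mitotic and -0.47 in the G1/S genes. The contrast between the lists was not tested as a set.

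**Figure D4:**
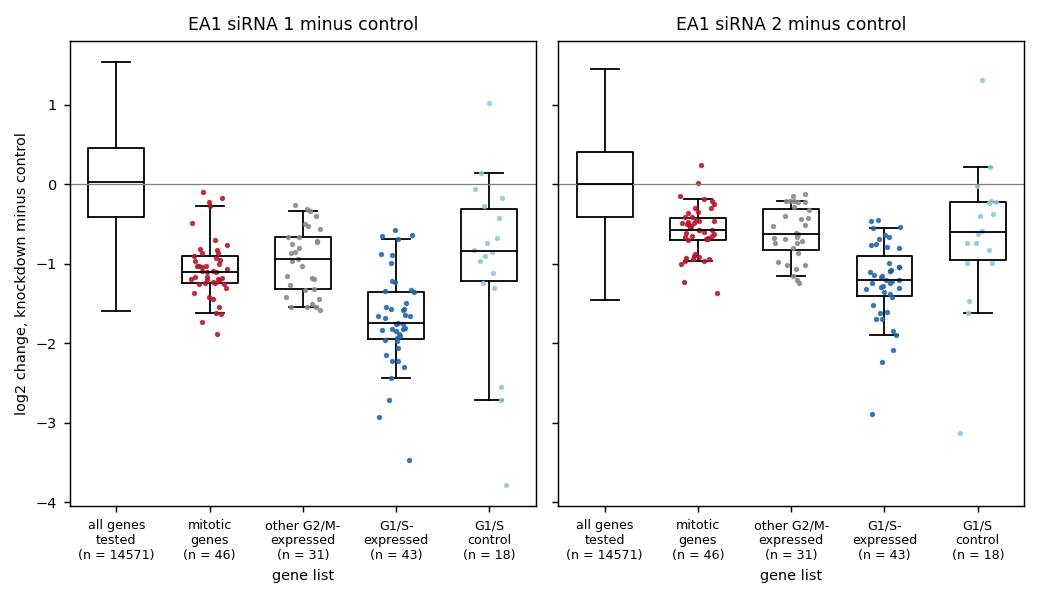
Log2 change, knockdown minus control, for all genes tested and 4 gene lists with EA1 siRNA 1 (left) and EA1 siRNA 2 (right); boxes span the quartiles with the median as a line, whiskers the 5th to 95th percentile, and points are genes. The mitotic medians are -1.10 and -0.57, and those of the G1/S-expressed genes -1.75 and -1.20.

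Summed over each list, both groups of genes were lower in every knockdown library than in either control library. The mitotic genes summed to 5307 and 5379 CPM in control. Under EA1 siRNA 1 they summed to 2833 and 2746 CPM, and under EA1 siRNA 2 to 3467 and 4019 CPM. The G1/S-expressed genes summed to 3598 and 3988 CPM in control, 1222 and 1244 under EA1 siRNA 1 and 1451 and 1915 under EA1 siRNA 2. The ratio of mitotic to G1/S sums was 1.48 and 1.35 in control, 2.32 and 2.21 under EA1 siRNA 1 and 2.39 and 2.10 under EA1 siRNA 2. Every knockdown library had a higher ratio than both controls, and the EA1 siRNAs overlapped in it.

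**Figure D5:**
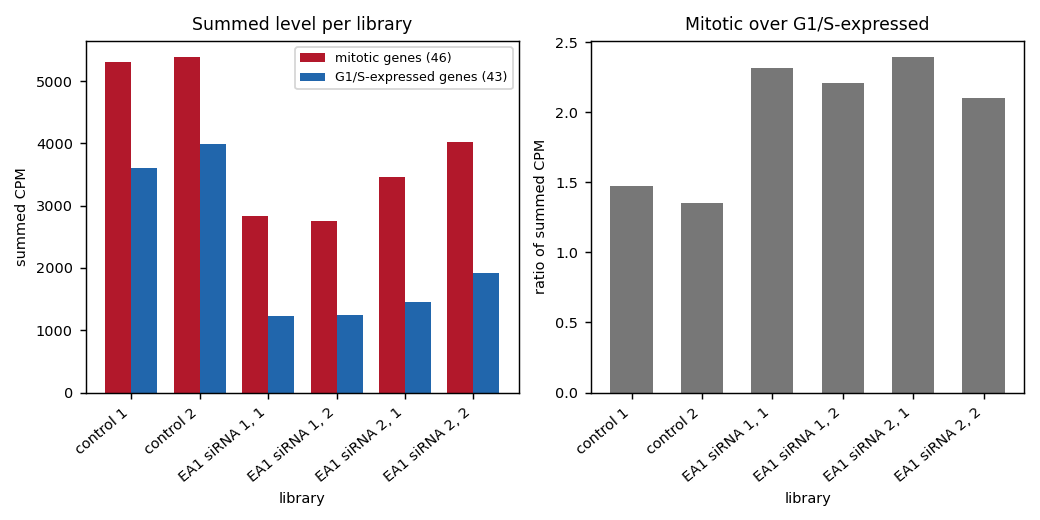
Summed CPM of the 46 mitotic (red) and 43 G1/S-expressed genes (blue) in each of the 6 libraries (left), and the ratio of the sums (right), with 1 bar per library and no error bars. The ratio is 1.48 and 1.35 in the control libraries and 2.10 to 2.39 in the knockdown libraries.

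The regulators of G1/S progression were less uniform than the genes expressed at that stage. Of 18 cyclins, kinases and regulators tested, 11 were called lower and 1 higher with both siRNAs averaged, against 22.1% and 21.5% of all genes tested. Their median log2 change was -0.84 with EA1 siRNA 1, -0.61 with EA1 siRNA 2 and -0.70 averaged, where the mitotic genes had -1.10, -0.57 and -0.85. CCND1, cyclin D1, had 1305 and 1379 CPM in the controls and 98.3, 96.3, 99.5 and 206 in the knockdown libraries, EA1 siRNA 1 first (log2 change -3.46 ± 0.20, SE, adjusted p = 1.87e-07). CDC25A, a phosphatase that activates CDK2, changed by -2.01 and DBF4, the activator of the CDC7 kinase, by -1.12. CDK2 was called higher, with 514 and 479.8 CPM in control, 1061 and 962 after EA1 siRNA 1 and 1373 and 1095 after EA1 siRNA 2 (log2 change 1.17 ± 0.12, SE, adjusted p = 1.02e-05), and it overlaps PMEL, a melanosome gene that rose from 9335 and 8113 counts in control to 29232 to 43636 after knockdown, on the opposite strand. Of 8 CDK inhibitors, 4 were called lower and 1 higher in the averaged comparison. With EA1 siRNA 1, 4 were called lower and 2 higher, against 20.3% and 19.9% of all genes tested. With EA1 siRNA 2, 2 were called lower and 1 higher, against 18.2% and 18.5%. CDKN1A, which encodes p21, had control levels of 223 and 148 CPM, against 115 and 87.6 under siRNA 1 and 102 and 103 under siRNA 2 (log2 change -0.86 ± 0.15, SE, adjusted p = 0.000647). In contrast, CDKN1B, which encodes p27, had 33.4 and 30.2 CPM in the controls and 69.5, 67.0, 60.9 and 55.9 in the knockdown libraries, EA1 siRNA 1 first (log2 change 0.99 ± 0.11, SE, adjusted p = 2.2e-05). All 4 knockdown libraries of CDKN1A lay below both controls, an order found in 27.3% of all genes tested. Those of CDKN1B all lay above, as in 28.1% of all genes. The averaged change of CDKN1A was -0.54 without control replicate 1 and -1.16 without control replicate 2.

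Further genes of mitosis moved with the 46, except most genes of the anaphase-promoting complex. These lists were written from general knowledge but with earlier results of these data known, and a few genes stand in more than 1 of them. Their counts are of the averaged comparison, in which 22.1% of all genes tested were called lower and 21.5% higher. Of 31 other genes with G2/M expression, 28 were called lower, at a median of -0.79, led by RANGAP1 (-1.42), GAS2L3 (-1.37) and TMPO (-1.22). Of 31 other kinetochore and checkpoint genes tested, 27 were called lower, at a median of -0.84, led by CENPQ (-1.62), by CENPW, whose change lay between those of the other two, and by SKA3 (-1.43), and CENPS had too few counts to test. The constitutive centromere proteins CENPC (-0.17) and CENPT (-0.15) were among the 4 of them not called. Among 21 condensin and cohesin genes, 16 were called lower, led by CDCA5 (-1.76), NCAPH (-1.39) and ESCO2 (-1.37), and STAG2, a cohesin subunit, was called higher (0.47). Of 18 genes of the anaphase-promoting complex, 6 (33.3%) were called lower, at a median of -0.17. Those with the most negative change were FBXO5 (-1.16), an inhibitor of the complex, and its ubiquitin-conjugating enzymes UBE2C (-1.07) and UBE2S (-0.97). CDC16, a core subunit, was called higher (0.31), and its call was lost without control replicate 1 (adjusted p = 0.17), control replicate 2 (0.0531) or EA1 siRNA 1 replicate 1 (0.0545). Among 14 regulators of the MuvB and DREAM complexes, 9 were called lower, led by MYBL2 (-1.28), which encodes B-MYB, LIN9 (-1.26) and LIN54 (-0.81), the subunit that binds the CHR, and LIN37 had too few counts to test.

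The size of the change was also set beside the CHR letters, with no test. The 26 genes with CHR letters within 50 bases of the start site had a median averaged change of -0.86, and the 13 without had -0.82. Only TTTGAA and TTTAAA were searched, so genes without these letters are not shown to lack the element. Among those with the letters, the averaged change ran from -1.15 in ANLN to 0.07 in INCENP. CENPK and CDK1, with the deepest falls, were among those without them, although the window of CDK1 held the letters farther away. Among those without the letters, the averaged change ran from -1.63 in CENPK to -0.32 in CDC25B. Genes with and without the letters thus overlapped between -1.15 and -0.32, a part of the range of the set.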

How the data were processed

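The 6 RNA-seq libraries of SU-CCS-1 were analysed, with groups and replicate numbers from the sample labels. Per the study's methods, libraries were built with a TruSeq Stranded mRNA kit, and BWA-MEM alignment to hg38 preceded counting. The authors deposited raw counts per gene without normalization. The submitters' processing notes name featureCounts 1.6.3. The annotation and the strand setting of the counting are not given in the sources used here, so reads of close paralogs and of genes that overlap on opposite strands are uncertain: 20 of the 46 mitotic genes have an opposite-strand gene, 7 a tested one and 4 a called one.

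From the deposited counts, genes were filtered in edgeR 4.0.16 (R 4.3.3) by filterByExpr at a minimum count of 10 and total of 15, scaled by TMM and tested by the quasi-likelihood method over the 6 libraries in 3 groups, with Benjamini-Hochberg adjustment over the 14571 genes tested and an adjusted p under 0.05 as the call. The common biological coefficient of variation was 0.109. Changes are knockdown minus control, and standard errors come from the F statistic. The comparisons with each siRNA share their control libraries. DESeq2 1.42.0, other filters and normalizations, a replicate block, each library left out in turn and fits of only the libraries compared were the alternatives. The study used DESeq2, which was run here as an alternative because of the small groups.

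Coordinates, exon lengths and opposite-strand genes come from GENCODE 44, and promoter windows from RefSeq on GRCh38.p14, the first listed of 35116 windows per symbol. The 46 genes and all gene lists were chosen with earlier results of these data known. Genes given with values in every library were chosen by rule: fixed landmark genes (CCNB1, CDK1, PLK1, AURKA, AURKB, BUB1B, MAD2L1, CDC20, TOP2A, MKI67 and FOXM1), the 6 most and the 6 least lowered of those called with each siRNA, and those called between the siRNAs. From the G1/S lists up to 4 and from each other list up to 3 genes per direction, by averaged change, were named. CENPC, CENPT, ESPL1 and the other mitotic genes given with 1 value were added after their values were seen, as were CDKN1A and CDKN1B.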

Additional observations from a re-analysis of the deposited data

Results flagged for a closer look

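The direct test between the siRNAs called 12 mitotic genes, all lower with EA1 siRNA 1, by edgeR's quasi-likelihood test with adjustment over all genes tested. Each of the 12, chosen by this same test, was lower in both EA1 siRNA 1 libraries than in both EA1 siRNA 2 libraries. That order, which the choice favors, was found in 38 of the 46 mitotic genes and in 23.8% of all genes. Among the checkpoint genes the log2 difference, EA1 siRNA 1 minus EA1 siRNA 2, was -0.77 for BUB1 (adjusted p = 0.00932), -0.70 for BUB1B (adjusted p = 0.0117) and -0.64 for TTK (adjusted p = 0.0375). Among the kinetochore genes it was -1.03 for SPC25 (adjusted p = 0.0484), -0.68 for CENPE (adjusted p = 0.0245) and -0.50 for CENPF (adjusted p = 0.0268). The kinesins KIF14, KIF11 and KIF4A differed by -0.77 (adjusted p = 0.0141), -0.63 (adjusted p = 0.0343) and -0.59 (adjusted p = 0.022). TPX2, BIRC5 and PLK1 differed by -0.72 (adjusted p = 0.0109), -0.62 (adjusted p = 0.0199) and -0.49 (adjusted p = 0.039). Without EA1 siRNA 1 replicate 2, 0 of the 46 mitotic genes were called in this test, and 22 without EA1 siRNA 2 replicate 1. The part of single libraries in these differences was not tested further.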

How the results depend on the processing

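Over 1069 recomputed values under alternative settings, every median kept its direction, and 1 single-gene value reversed: PTTG1, whose averaged change ran from -0.268 to 0.0825 when libraries were left out in turn. The mitotic genes called lower numbered 40 to 44 with EA1 siRNA 1, 24 to 39 with EA1 siRNA 2 and 39 to 44 averaged. The count called between the siRNAs moved most: 7 with library totals alone, 6 with only the libraries compared in the fit, and 0 to 22 with 1 library left out. A lone library left in a group is assumed to vary like the other groups. With 1 library left out, the median of the mitotic genes ran from -0.73 to -0.47 with EA1 siRNA 2 and from -0.93 to -0.82 averaged, and their median difference between the siRNAs from -0.59 to -0.41. Their median less that of the G1/S genes ran from 0.47 to 0.73 with EA1 siRNA 1 and from 0.49 to 0.80 with EA1 siRNA 2. The cause of these shifts was not tested.

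The labels do not say what a shared replicate number marks. With a replicate block, that is, pairing by number, the count called between the siRNAs was 22, and the counts lower were 43, 39 and 44 with EA1 siRNA 1, EA1 siRNA 2 and both averaged. The deviations from the group means that same-numbered libraries share had correlations of 0.13 (control with EA1 siRNA 1), 0.20 (control with EA1 siRNA 2) and 0.14 (both siRNAs) across genes. Counts of 18 to 43, as for CENPM, limit the precision of the least abundant genes.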
